A study of Homo sapiens with 4 samples.

Results

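The genes described here are MYC and 33 nucleolar factors that build ribosomes, 34 in all, in FaDu cells that overexpress tagged TINCR. They were taken by symbol from a list of snoRNP, RNA polymerase I, small subunit processing and pre-60S assembly genes. All 34 were found among the 60649 gene rows of the count table, and all 34 were among the 18771 genes that passed the filter on low counts. FaDu is an established human line of squamous origin, derived from a tumour of the hypopharynx, and both groups were grown in MEM alpha with fetal bovine serum. One group carried an empty vector and the other overexpressed TINCR-HA-FLAG, a form of TINCR with HA and FLAG tags, with 2 RNA sequencing libraries each. The labels give no time point, and do not say whether either line was a clone. The series calls the libraries technical replicates, so each p-value here reflects the spread among 4 libraries alone, and that spread may be technical. Its 1 comparison asks how expression differs when tagged TINCR is overexpressed.

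Total counts lay between 17069533 and 22331602 per library. Counts of TINCR itself were 68 and 64 in the empty vector libraries, against 1921 and 2943 where TINCR-HA-FLAG was overexpressed. All 9 squamous epithelial markers examined passed the filter, with summed levels of 8543 and 9768 counts-per-million (CPM) in the empty vector libraries and 7269 and 8520 CPM in the TINCR-HA-FLAG libraries. Of the 9, 8 had a negative log2 fold change, beside 49.3% of all genes tested. Of these markers edgeR called 1 lower, beside 0.0959% of all genes, and DESeq2 called 3 lower, beside 0.314%. The basal keratin KRT14 was called lower by both, at 108 and 125 CPM in the empty vector libraries against 45.9 and 64.2 CPM (log2 fold change -1.08, SE 0.15, edgeR adjusted p = 0.014). SFN (stratifin) and the keratin KRT6A had log2 fold changes of -0.71 and -0.94, with adjusted p of 0.074 and 0.11 in edgeR and 0.00089 and 0.039 in DESeq2. Among markers of other cell types, PTPRC, CD3E, PECAM1 and DES had between 0 and 8 counts in each library. The summed level of the 5 markers that passed the filter was 37.2 and 33.9 CPM with the empty vector against 42.9 and 43.5 CPM in the TINCR-HA-FLAG libraries. Most of it was COL1A1, a collagen of connective tissue, at 26.9 and 24.0 CPM against 33.6 and 33.6 CPM (log2 fold change 0.40, SE 0.12, edgeR adjusted p = 0.26). COL3A1 had a log2 fold change of -0.22. The part of these marker differences in the results below was not tested. Transcripts of the mitochondrial genome took 9.43% and 7.58% of counts in empty vector libraries 1 and 2, against 11.4% and 8.66% in TINCR-HA-FLAG libraries 1 and 2.

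Ribosomes are built in the nucleolus. RNA polymerase I transcribes the ribosomal DNA into a long precursor, small nucleolar RNPs (snoRNPs) guide its chemical modification, and large particles then cut, fold and package it into the pre-40S and pre-60S subunits. MYC, a transcription factor that binds DNA with its partner MAX, is known to drive many of these genes and is often overexpressed in carcinomas.

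The promoters of the 34 genes were examined first, because MYC and MAX bind the E-box, written CACGTG, which reads the same on both strands. RefSeq windows from 250 bases before to 50 after the annotated start (GRCh38.p14) were found for 28 of the 34 genes. CACGTG occurred in at least 1 window of 13 of these 28 genes (46.4%), beside 1458 of the 12014 tested genes that had a window (12.1%) and 8.8% of all 27305 genes with one. Counted by window, it was in 37.1% of 35 windows and 9.0% of the 17328 windows of tested genes. Of 95 other ribosome biogenesis genes with a window, from lists described below, 29 had it (30.5%). The windows of the 28 genes held 62.3% G and C, and those of tested genes 63.1%. The variant CACGCG, or CGCGTG on the other strand, was in the windows of 42.9% of the 28 genes and 21.5% of tested genes. A match is a run of letters, and binding was not measured.

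The 4 promoters below are shown because 3 carry CACGTG shortly before the start, and the gene NCL, described below, carries none in its window. In other genes of the list, such as WDR43, FBL and PES1, CACGTG lay after the start. Each run ends at the base before the annotated start, is written 5′ to 3′ on the strand of the gene, and has CACGTG in capitals. UTP20 lies on chromosome 12 (chr12:101280005-101280104, plus strand), NAT10 on chromosome 11 (chr11:34105529-34105628, plus strand), NOP10 on chromosome 15 (chr15:34343137-34343336, minus strand) and NCL on chromosome 2 (chr2:231464485-231464584, minus strand).
UTP20: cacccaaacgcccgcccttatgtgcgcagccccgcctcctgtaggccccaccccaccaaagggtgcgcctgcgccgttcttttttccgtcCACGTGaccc
NAT10: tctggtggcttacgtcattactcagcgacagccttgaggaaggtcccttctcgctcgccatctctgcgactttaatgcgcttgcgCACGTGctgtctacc
NOP10: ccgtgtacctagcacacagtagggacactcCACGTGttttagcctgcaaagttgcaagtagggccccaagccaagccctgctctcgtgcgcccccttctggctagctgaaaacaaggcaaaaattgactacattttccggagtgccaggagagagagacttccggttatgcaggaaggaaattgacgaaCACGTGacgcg
NCL: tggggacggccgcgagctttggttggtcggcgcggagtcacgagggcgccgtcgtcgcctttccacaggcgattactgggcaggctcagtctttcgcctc
The E-box began 10 bases before the start in UTP20 and 15 before it in NAT10, while NOP10 held a pair, at 170 and 11 bases. The 13 genes with CACGTG had a median log2 fold change (TINCR-HA-FLAG over empty vector) of -0.18, from -0.31 to 0.04. The 15 genes without it had a median of -0.22, from -0.51 to 0.14. These ranges overlapped over most of their length.

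Across the whole list the values with TINCR-HA-FLAG were slightly below those with the empty vector, and no single gene passed the test. The log2 fold change was negative for 32 of 34 genes, beside 49.3% of all genes tested, with a median of -0.19 for the list and 0.004 for all genes. In edgeR's quasi-likelihood test with Benjamini-Hochberg adjustment, 0 of 34 were called lower at an adjusted p under 0.05, beside 0.0959% of all genes, and 0 were called higher, beside 0.453%. In either direction 0.549% of all genes were called. At an unadjusted p under 0.05, 9 of the 34 were lower and none higher, where 4.31% of all genes were lower and 10.2% differed in either direction. When the replicate number, which the labels do not give as a pairing, was added as a block, edgeR called 16 of the 34 lower, beside 7.01% of all genes. DESeq2 called 1 of the 34 lower, NCL, beside 0.314% of all genes. Both TINCR-HA-FLAG libraries lay below both empty vector libraries for 23 of the 34, beside 17.9% of all genes. The reverse held for 0 of 34, beside 21.7%, and the groups overlapped for 11.

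Standard errors of the 34 log2 fold changes lay between 0.099 and 0.55, with a median of 0.11. For 27 of the 34 genes the 95% interval of the difference lay wholly above a 1.5-fold lower level. The 7 whose interval reached it were NCL, RRP9, RRP12, WDR12, NOP2, NOP16 and NOC2L.

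Together the 34 genes took 0.445% and 0.449% of all reads counted in the empty vector libraries, against 0.375% and 0.402% in the TINCR-HA-FLAG libraries. Both TINCR-HA-FLAG values were below both empty vector values. The order was the same without the mitochondrial counts, at 0.492% and 0.486% against 0.423% and 0.440%. It was also the same without NCL, at 0.377% and 0.380% against 0.326% and 0.350%. In RNA from bulk cells, fewer cells with the transcripts and less RNA per cell cannot be told apart.

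**Figure D1:**
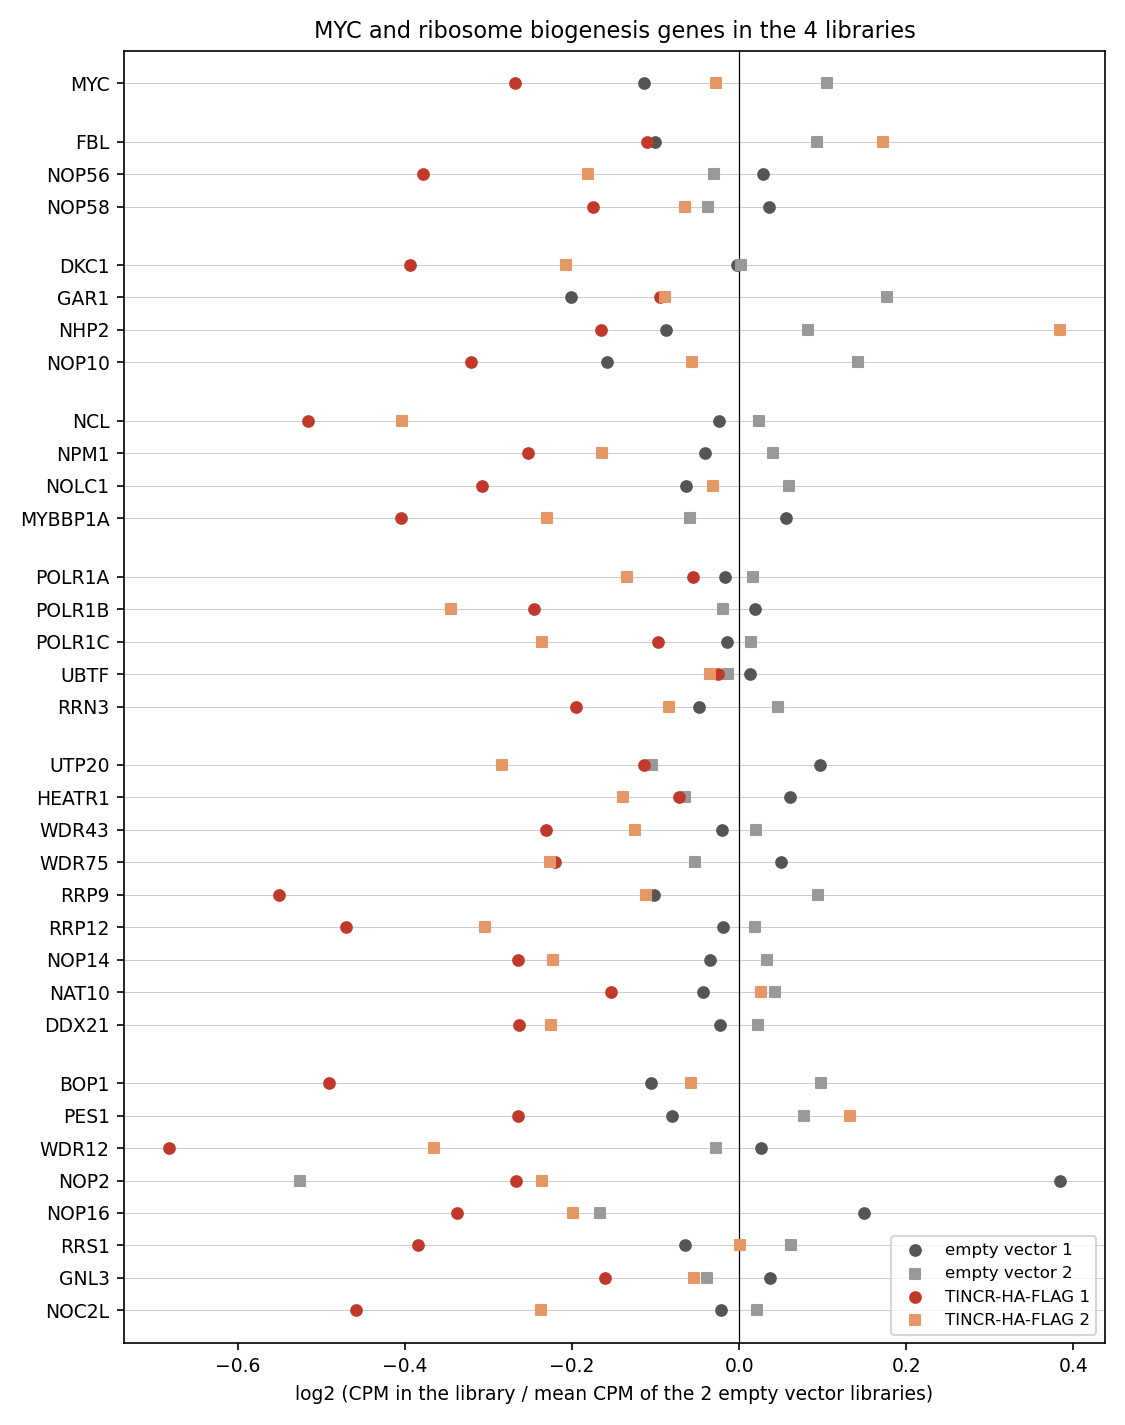
Level of each of the 34 genes in each library, as log2 of its CPM over the mean CPM of the 2 empty vector libraries (x axis), with 1 gene per line in the order of the roles described in the text. The TINCR-HA-FLAG libraries are in red (1) and orange (2), the empty vector libraries in dark grey (1) and light grey (2); TINCR-HA-FLAG library 1 is the lowest of the 4 for 25 of the 34 genes.

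TINCR-HA-FLAG library 1 was the lowest of the 4 libraries for 25 of the 34 genes, TINCR-HA-FLAG library 2 for 7, and each empty vector library for 1. Comparing libraries of the same number, 33 of 34 genes were lower in TINCR-HA-FLAG library 1 than in empty vector library 1 (median log2 ratio -0.22). Between the libraries numbered 2, 30 of 34 were lower (median -0.15), and 29 were lower in both. The library with the lowest values was also the one with the highest mitochondrial share, whose part in the result was not tested. With the mitochondrial genes left out of the counts, the median of the list was -0.20 and 32 of 34 stayed negative. That step mainly rescales each library, so it does not test the part of the mitochondrial share.

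MYC itself had 197 and 229 CPM in the empty vector libraries and 177 and 209 CPM in the TINCR-HA-FLAG libraries. The groups overlapped, since empty vector library 1 lay below TINCR-HA-FLAG library 2. The log2 fold change was -0.14 (SE 0.12, 95% interval -0.42 to 0.13, edgeR adjusted p = 0.78). Its value was closer to 0 than the median of the list. Scaled by exon length, in transcripts-per-million (TPM), MYC stood at 186 ± 15.5 in the empty vector group and 168 ± 19.9 in the TINCR-HA-FLAG group (SD, n = 2).

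Box C/D snoRNPs add methyl groups to ribosomal RNA, with fibrillarin (FBL) as the enzyme and NOP56 and NOP58 as the scaffold. NOP56 had 154 and 148 CPM with the empty vector and 116 and 133 CPM with TINCR-HA-FLAG, so the groups did not overlap. Its log2 fold change was -0.28 (SE 0.11, edgeR adjusted p = 0.41). NOP58, its close relative, had 53.1 and 50.4 CPM against 45.8 and 49.5 CPM. These groups were separate by less than 1 CPM, with a log2 fold change of -0.12 (edgeR adjusted p = 0.80). FBL had 134 and 153 CPM against 133 and 161 CPM, fully interleaved, and its log2 fold change was 0.04 (SE 0.12, edgeR adjusted p = 0.96). It was 1 of the 2 genes of the list with a positive value.

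Box H/ACA snoRNPs convert uridine to pseudouridine through the enzyme dyskerin (DKC1), held by GAR1, NHP2 and NOP10. DKC1 had 146 and 147 CPM with the empty vector and 112 and 127 CPM with TINCR-HA-FLAG. Its groups did not overlap and its log2 fold change was -0.30 (SE 0.11, edgeR adjusted p = 0.36). NOP10, the smallest subunit, had 63.0 and 77.6 CPM against 56.3 and 67.6 CPM. The groups overlapped (log2 fold change -0.18, edgeR adjusted p = 0.73). GAR1 and NHP2 were at 8.17 to 22.2 CPM over the 4 libraries and overlapped between groups. Their log2 fold changes were -0.09 and 0.14, with standard errors of 0.20 and 0.19. The enzyme of this complex thus had the lowest value and a small subunit the highest, although the differences between subunits were not tested.

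NCL, NPM1, NOLC1 and MYBBP1A are abundant nucleolar proteins with different roles. NCL encodes nucleolin, which binds nascent pre-ribosomal RNA (ENSG00000115053.17, GRCh38 chromosome 2, 231453531 to 231483641, minus strand). Its levels were 681 and 703 CPM with the empty vector and 484 and 523 CPM with TINCR-HA-FLAG. The gap between the groups was wider than the spread within either. The fold change was 0.73 (log2 -0.46, SE 0.12, 95% interval -0.72 to -0.20), with an adjusted p of 0.15 in edgeR and 0.0085 in DESeq2. Over all alternatives without a replicate block, the adjusted p of NCL lay between 0.0085 and 0.68.

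MYBBP1A, a nucleolar protein that binds MYB and restrains ribosomal DNA transcription, had 211 and 195 CPM against 154 and 173 CPM. Its groups were separate and its log2 fold change was -0.31 (SE 0.11, edgeR adjusted p = 0.35). NPM1, the histone and ribosome chaperone nucleophosmin, had 569 and 602 CPM against 492 and 523 CPM. Its groups were separate too, at a log2 fold change of -0.21 (edgeR adjusted p = 0.61). NOLC1, a chaperone of snoRNPs, had a log2 fold change of -0.16 and groups that overlapped. NCL and NPM1 together made up 28.2% and 28.5% of the counts of the 34 genes with the empty vector, but 26.4% and 25.9% with TINCR-HA-FLAG.

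The RNA polymerase I genes had log2 fold changes from -0.30 to -0.03. All 5 were below 0, with both TINCR-HA-FLAG libraries under both empty vector libraries for each of the 5, an order that 17.9% of all genes had. POLR1B, the second largest subunit, had 58.1 and 56.6 CPM against 48.3 and 45.1 CPM (log2 fold change -0.30, SE 0.11, edgeR adjusted p = 0.36). POLR1C, a subunit shared with RNA polymerase III, had 30.1 and 30.7 CPM against 28.4 and 25.8 CPM (log2 fold change -0.17, edgeR adjusted p = 0.73). RRN3, the initiation factor that makes the polymerase competent to start, had 84.4 and 90.1 CPM against 76.2 and 82.3 CPM (log2 fold change -0.14, edgeR adjusted p = 0.74). The largest subunit POLR1A and the promoter factor UBTF had log2 fold changes of -0.09 and -0.03. TINCR-HA-FLAG library 2 was the lowest of the 4 for POLR1A, POLR1B, POLR1C and UBTF, as it was for UTP20, HEATR1 and WDR75 among the 29 other genes. UBTF lay between 96.5 and 99.8 CPM in every library, and its 95% interval ran from -0.25 to 0.19.

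All 9 small subunit factors were below 0, with a median of -0.22. They serve the processome, the particle that assembles on the nascent transcript, or later pre-40S steps. RRP12, a factor of late pre-40S maturation and export, had 93.1 and 95.6 CPM with the empty vector and 68.0 and 76.4 CPM with TINCR-HA-FLAG. The groups were well apart, at a log2 fold change of -0.38 (SE 0.11, edgeR adjusted p = 0.20). DDX21, an RNA helicase linking transcription to processing, had 268 and 277 CPM against 227 and 233 CPM (log2 fold change -0.24, SE 0.10, edgeR adjusted p = 0.45). Its replicates were close together and the groups did not overlap. RRP9, a protein of the U3 snoRNP, stood at -0.31, NOP14 at -0.24 and the processome proteins WDR75, UTP20, WDR43 and HEATR1 at -0.22, -0.20, -0.18 and -0.10. The cytidine acetyltransferase NAT10 stood at -0.06 and was the 1 gene of the 9 whose groups overlapped. In the other 8 both TINCR-HA-FLAG libraries lay below both empty vector libraries, beside 17.9% of all genes.

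The pre-60S genes had the widest range. WDR12, which forms the PeBoW complex with PES1 and BOP1, had the lowest log2 fold change of the 34 (ENSG00000138442.10, GRCh38 chromosome 2, 202874782 to 203014798, minus strand). Its levels were 31.2 and 30.0 CPM with the empty vector and 19.1 and 23.8 CPM with TINCR-HA-FLAG. The fold change was 0.70 (log2 -0.51, SE 0.14, 95% interval -0.82 to -0.20, edgeR adjusted p = 0.19). The groups were separate, and the TINCR-HA-FLAG libraries differed more from each other than the empty vector libraries did.

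The partners of WDR12 stood closer to 0 and overlapped between groups. BOP1 had 97.0 and 112 CPM against 74.2 and 100 CPM (log2 fold change -0.26, SE 0.14), and PES1 had 103 and 115 CPM against 90.3 and 119 CPM (log2 fold change -0.05, SE 0.14). Over the fits with 1 library left out, the log2 fold change of WDR12 ran from -0.69 to -0.36. That of BOP1 ran from -0.50 to -0.05. Both were highest without TINCR-HA-FLAG replicate 1.

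NOC2L, a factor of early pre-60S transport, had 79.8 and 82.2 CPM against 58.9 and 68.7 CPM. Its groups were separate, at a log2 fold change of -0.34 (SE 0.11, edgeR adjusted p = 0.30). GNL3, the nucleolar GTPase nucleostemin, had 110 and 104 CPM against 95.5 and 103 CPM, separate by about 1 CPM (log2 fold change -0.11, edgeR adjusted p = 0.81). NOP16 and RRS1 stood at -0.26 and -0.17. The row of NOP2, a ribosomal RNA methyltransferase, held 19, 10, 13 and 16 counts, and its log2 fold change of -0.25 had a standard error of 0.55. The NOP2 row overlaps another annotated gene on the same strand (ENSG00000285238), and the part of that overlap in its low count was not tested. NHP2, NOP14, GNL3 and NOC2L overlap genes on the opposite strand and RRN3 has near-identical pseudogene copies, which makes their values less certain. The annotated span of WDR12 also holds the start of another gene, CARF. The part of that overlap in the WDR12 value was not tested. Without NOP2, the median of the other 33 genes was -0.18, and 31 were negative.

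**Figure D2:**
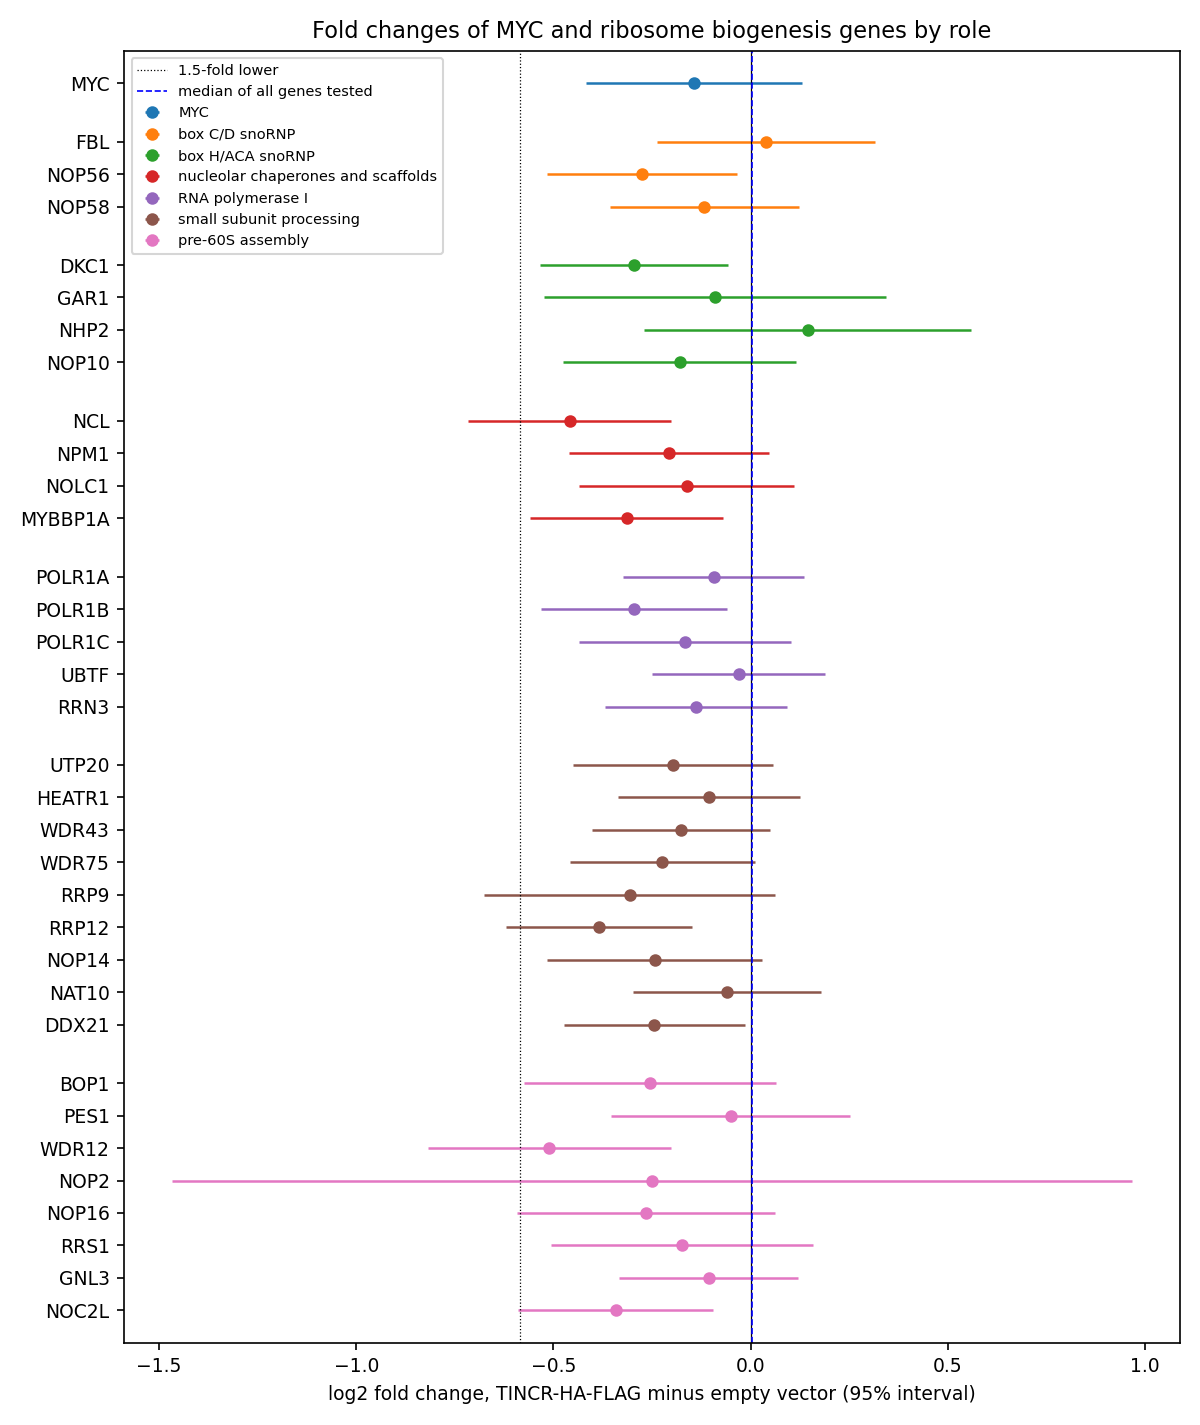
Log2 fold change of each of the 34 genes (x axis, TINCR-HA-FLAG minus empty vector) with its 95% interval from the edgeR fit, coloured by role. The points of 32 genes lie below 0, the dotted line marks a 1.5-fold lower level and the dashed line the median of all 18771 genes (0.004).

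Per exon length the 34 genes covered a wide range of levels with the empty vector. NPM1 was highest at 401 ± 6.42 TPM, followed by NOP10 at 332 ± 40.9, NCL at 262 ± 0.16, NOLC1 at 189 ± 6.92, MYC at 186 ± 15.5 and FBL at 172 ± 12.3 (SD, n = 2). NOLC1 and MYC lay within 1 SD of each other, and MYC and FBL differed by less than the SD of MYC but more than that of FBL. In the TINCR-HA-FLAG group NCL stood at 190 ± 10.6 TPM and FBL at 177 ± 24.5 TPM, less than the SD of FBL apart. Apart from NOP2, WDR12 was lowest at 8.81 ± 0.44 TPM. These levels use all annotated exons of a gene, so a gene with long, rarely used exons reads low.

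The position of the 2 lowest genes was examined because both lie on chromosome 2. Among the 38 tested genes that start within 2 Mb of the annotated NCL start, 30 had a negative log2 fold change and the median was -0.30, beside -0.46 for NCL. For 20 of the 38 (52.6%), both TINCR-HA-FLAG libraries lay below both empty vector libraries, an order that 17.9% of all genes had. Around WDR12, 19 of 25 neighbours were negative, with a median of -0.14 beside -0.51 for WDR12. Around POLR1B, also on chromosome 2, 28 of 35 were negative with a median of -0.22, beside -0.30 for POLR1B. NOP58 stood above its neighbours, at -0.12 beside a median of -0.17.

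Genes on other chromosomes were compared in the same way. The 27 genes on other chromosomes had a median of -0.18 and the 7 on chromosome 2 a median of -0.22, while all 1176 tested genes of chromosome 2 had a median of -0.10. Around RRP12 the median of 37 neighbours was 0.04 beside -0.38 for RRP12, and around NOP56 it was 0.01 over 45 neighbours beside -0.28. Around MYBBP1A the median was -0.12 over 70 neighbours beside -0.31, and around DKC1 it was -0.10 over 53 beside -0.30. The neighbour medians of the 34 genes ran from -0.30 to 0.09, and 20 of them were negative. In all, 32 of the 34 genes stood below the median of their own neighbours, NHP2 and NOP58 being the exceptions. The median of these differences was -0.15. The part of chromosomal position in the values of the 34 genes was not tested.

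**Figure D3:**
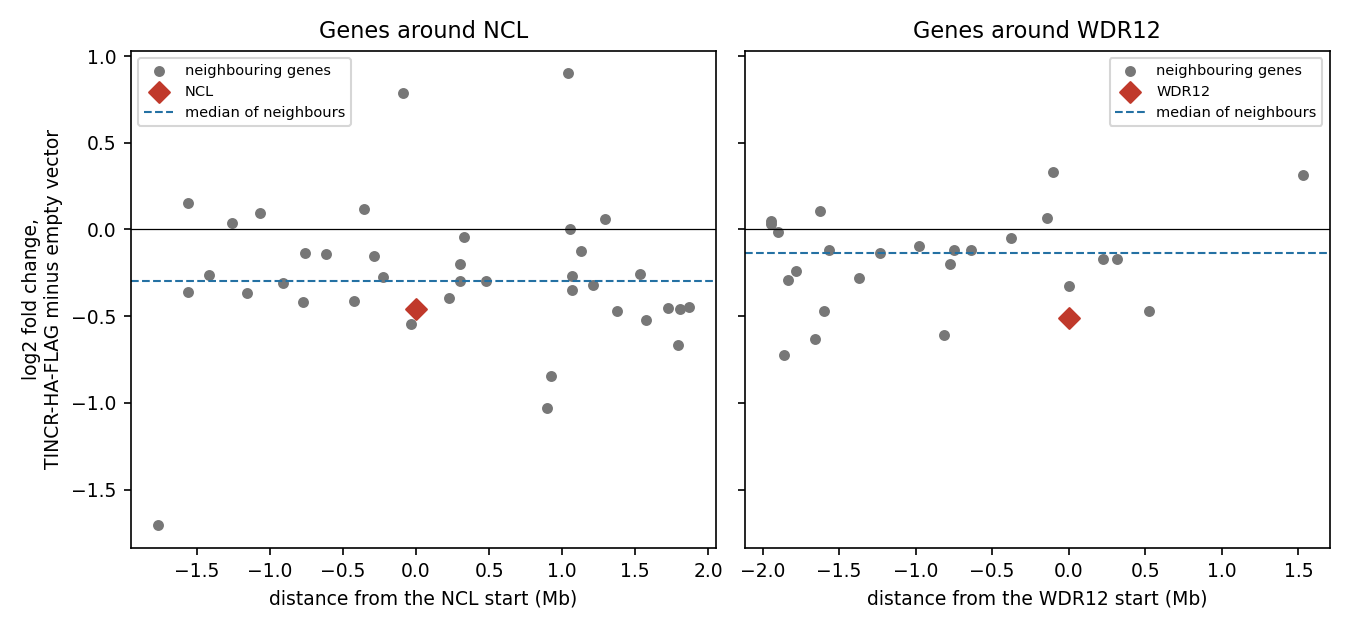
Log2 fold changes (y axis) of the tested genes that start within 2 Mb of NCL (left, 38 genes) and WDR12 (right, 25 genes), against their distance from that gene's annotated start in Mb (x axis). NCL and WDR12 are red diamonds at -0.46 and -0.51, and the dashed lines are the medians of the neighbours, -0.30 and -0.14.

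Further genes of ribosome production were mostly below 0 as well, and none was called by edgeR. Of 107 other biogenesis genes, 90 were negative, beside 49.3% of all genes, with a median log2 fold change of -0.16. The range ran from -0.63 (PWP2) to 0.18 (UTP23), both processome genes chosen after their values were seen. Both TINCR-HA-FLAG libraries were below both empty vector libraries for 61 of the 107 (57.0%, beside 17.9% of all genes) and above them for 7 (beside 21.7%). At an unadjusted edgeR p under 0.05, 21 were lower, where 4.31% of all genes were lower, and 0 higher. DESeq2 called 1 lower, IMP4, beside 0.314% of all genes. By role, the median was -0.16 over 42 small subunit genes, -0.16 over 44 pre-60S genes, -0.21 over 10 RNA polymerase I genes and -0.07 over 11 snoRNP assembly genes.

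IMP4, a U3 snoRNP protein, had 59.6 and 66.8 CPM with the empty vector and 41.2 and 45.7 CPM with TINCR-HA-FLAG. Its groups were separate, at a log2 fold change of -0.54 (SE 0.11) with an adjusted p of 0.084 in edgeR and 0.029 in DESeq2. RCL1, another processome protein, stood at -0.35 (edgeR adjusted p = 0.25). The pre-60S genes BRIX1 and RRP1 stood at -0.43 and -0.32 (edgeR adjusted p = 0.15 and 0.30). TAF1B and TAF1D, subunits of the RNA polymerase I selectivity factor, stood at -0.38 and -0.33. The snoRNP assembly genes NUFIP1 and SHQ1 stood at -0.31 and -0.16. IMP4 and TAF1B lie on chromosome 2, where all 1176 tested genes had a median of -0.10. The part of chromosomal position in their values was not tested.

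**Figure D4:**
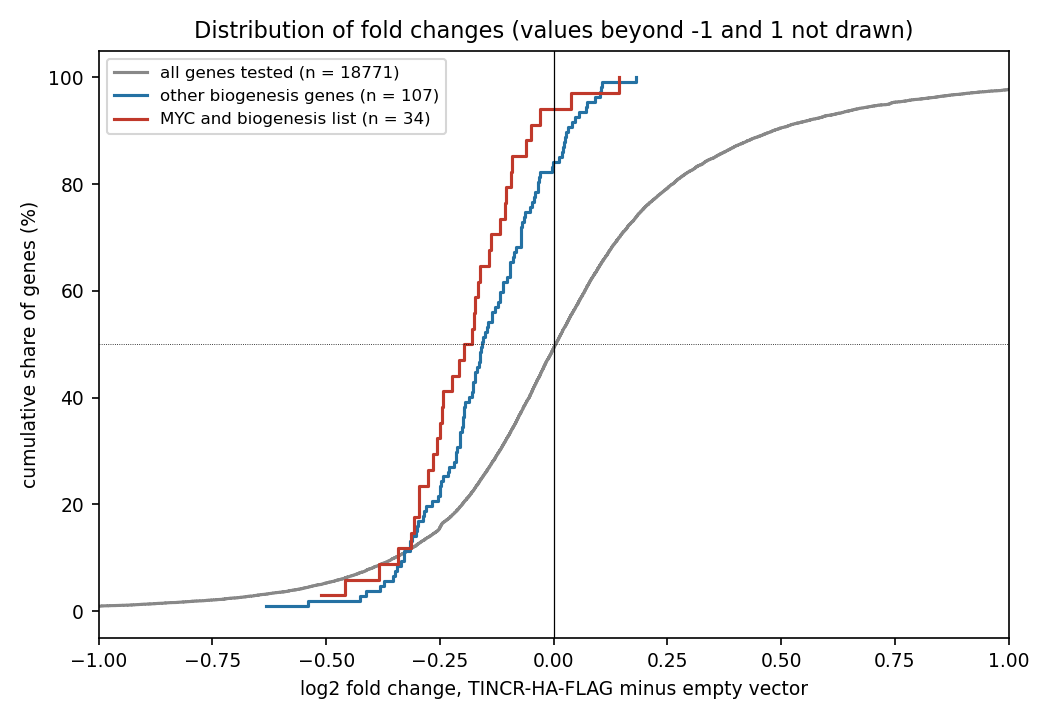
Cumulative share of genes (y axis, %) by log2 fold change (x axis) for the 34 genes (red), 107 other biogenesis genes (blue) and all 18771 genes tested (grey). The medians are -0.19, -0.16 and 0.004, and the red and blue curves reach above 80% by 0 while the grey curve is at 49.3%.

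Noncoding genes whose introns hold snoRNAs were examined as well. All 9 were negative, beside 49.3% of all genes, with a median of -0.17. At an unadjusted edgeR p under 0.05, 3 were lower, beside 4.31% of all genes, and none higher. None was called by edgeR or DESeq2, which called 0.0959% and 0.314% of all genes lower. SNHG15 had 43.7 and 37.2 CPM against 31.4 and 30.9 CPM (log2 fold change -0.38, SE 0.12, edgeR adjusted p = 0.30), and SNHG12 stood at -0.41 (SE 0.17).

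MYC targets outside the nucleolus were also examined. All 19 were negative, beside 49.3% of all genes, with a median of -0.25. None was called by edgeR, beside 0.0959% of all genes called lower, and 8 were lower at an unadjusted p under 0.05, beside 4.31%. DESeq2 called HSPD1 lower, beside 0.314% of all genes. HSPD1, the mitochondrial chaperonin, had 482 and 492 CPM with the empty vector and 346 and 365 CPM with TINCR-HA-FLAG. Its groups were far apart relative to their spread, at a log2 fold change of -0.45 (SE 0.11) with an adjusted p of 0.14 in edgeR and 0.0085 in DESeq2. CAD, the enzyme that starts pyrimidine synthesis, stood at -0.32 (SE 0.10, edgeR adjusted p = 0.27). CACGTG was in the promoter windows of 11 of the 17 that had one. HSPD1 and CAD also lie on chromosome 2, and the part of chromosomal position in their values was not tested.

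The partners, relatives, antagonists and other network genes of MYC were mostly above 0. Of 14 tested network genes, 11 were positive, beside 9515 of all 18771 genes, and the median was 0.11. None was called by edgeR, beside 0.549% of all genes in either direction, or by DESeq2, beside 190 of all 18771. At an unadjusted edgeR p under 0.05, 1 was higher and 1 lower, beside 1104 and 809 of all 18771 genes. MXD4, which competes with MYC for MAX, had 28.7 and 35.3 CPM with the empty vector and 39.4 and 48.7 CPM with TINCR-HA-FLAG. The groups were separate, at a log2 fold change of 0.47 (SE 0.14, edgeR adjusted p = 0.27). MLX, a partner of the related MondoA factors, stood at -0.26 (SE 0.11, edgeR adjusted p = 0.43). MYCL had the highest value of the tested network genes, a log2 fold change of 0.63 (SE 0.29, edgeR adjusted p = 0.50). MYCN had 0, 0, 2 and 3 counts and was not tested. Of 5 genes known to be repressed by MYC, 4 were positive with a median of 0.16. Neither tool called any of the 5, beside 0.549% of all genes called by edgeR. CDKN2B stood at 0.42 (SE 0.16) and GADD45A at -0.43 (SE 0.17), each with an unadjusted edgeR p under 0.05 and an adjusted p of 0.39 and 0.41.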

How the data were processed

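RNA was measured by sequencing in 4 FaDu libraries, 2 per group, taken from the sample titles. The values the authors deposited are raw counts, given as whole numbers for each Ensembl gene in each library. Per the submitters' processing notes, the tools named, with no role given, were STAR 2.7.9a, bcl2fastq 2.20.0.422 and DESeq2 1.32.0, on GRCh38. How reads were counted, on which strand and with which annotation is not given in the sources used here, so overlapping genes may share reads. Another 12 library columns match no sample title and were not used.

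Symbols matched 60507 rows and GENCODE 29 positions 58381. Counts were scaled by TMM, filtered with filterByExpr and tested over all genes with edgeR 4.0.16 in R 4.3.3 (quasi-likelihood, robust, Benjamini-Hochberg, threshold 0.05). CPM are scaled by TMM, and 3 counts correspond to 0.13 to 0.18 CPM, which covers counting error only. TPM used GENCODE exon lengths. Promoters are from RefSeq. Both edgeR and DESeq2 1.42.0 were tested on simulated counts.

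The 34 genes and all lists were chosen with earlier results of these data known. Values per library are given for MYC and, in each role, for the 2 genes with the smallest p and the one with the highest TPM, and from each other list the 2 with the smallest p and any gene called by edgeR are named. BOP1, PES1, NOP2, UBTF, MYCN, MYCL, GAR1, NHP2, KRT6A, PWP2 and UTP23 were given values after theirs were seen. The neighbours on the chromosome were too.

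Alternatives were DESeq2, RLE, library totals or upper quartile scaling, no filter or a minimum of 1 CPM in 2 libraries, mitochondrial genes or TINCR left out, the legacy dispersion, the replicate number as a block and each library left out.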

Additional observations from a re-analysis of the deposited data

How the results depend on the processing

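The median log2 fold change of the 34 genes was negative under every alternative run, and at least 29 genes were negative under each planned one. Leaving out 1 library each gave medians from -0.27 to -0.13, the highest without TINCR-HA-FLAG replicate 1, and 0 to 2 genes called lower. The 2 were WDR12 and BOP1, called without TINCR-HA-FLAG replicate 2. Of the fits with 1 library left out, that one also called the most genes lower over the whole table. It leaves 1 library in the TINCR-HA-FLAG group, so no result for WDR12 or BOP1 is drawn from these calls. A group left with 1 library was assumed to vary like the other group. Over the whole table, 103 genes were called, against 190 with DESeq2, 53 with no filter on low counts and 124 to 386 with 1 library left out. The count was highest without TINCR-HA-FLAG replicate 2, 232 without TINCR-HA-FLAG replicate 1 and 172 without empty vector replicate 2. Of the 34, DESeq2 called 1, NCL. The cause was not tested.

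Leaving out 1 library each turned the sign of 7 genes, none called: FBL (-0.12 to 0.18), NOP2 (-0.63 to 0.23), GAR1 (-0.31 to 0.11), PES1 (-0.27 to 0.14), NAT10 (-0.16 to 0.032), RRS1 (-0.39 to 0.0072) and NHP2 (-0.17 to 0.39). The other 27 kept theirs under every alternative.

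With the replicate number as a block, edgeR called 2633 genes over the whole table and 16 of the 34 lower, beside 7.01% of all genes lower. The block leaves 1 residual degree of freedom per gene. The 16 were NCL, NOP56, DKC1, NPM1, NOLC1, MYBBP1A, POLR1B, UTP20, WDR43, WDR75, RRP9, RRP12, DDX21, BOP1, WDR12 and NOC2L. Deviations of same-numbered libraries correlated at 0.47 over 16031 genes. The labels do not say that the numbers pair the libraries, and 2 pairs cannot show it. Leaving out the genes of chromosome 2, chosen after seeing the data, gave a median of -0.18 with 25 of 27 negative. NOP2 had the fewest counts, 10 to 19 per library.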
